A study of Drosophila melanogaster with 2 samples.

Results

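The 8 genes tin, bap, Mef2, twi, sna, htl, stumps and how of Drosophila melanogaster, which act in the mesoderm and the heart, were examined for binding by the tagged protein of CG10959. They were taken by name, 8 of the 13945 protein-coding genes on the arms of the chromosomes (X, 2L and 2R, 3L and 3R, and 4). The choice was made with earlier results of these data known, so shares of all genes set beside them are a description only. Of these 8 genes, 5 had at least 1 peak inside the gene or nearest to one of its transcription start sites (TSSs). These were tin, Mef2, htl, stumps and how, with 9 peaks in all. No such peak was found at bap, twi or sna. The strongest of the 9 peaks lay just upstream of tin, in the 5' UTR of Mef2 and in an intron of stumps.

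The mesoderm of the fly embryo forms from ventral cells in which the transcription factors Twist and Snail, encoded by twi and sna, drive invagination. The cells then spread over the ectoderm under fibroblast growth factor (FGF) signalling, which runs through the receptor Heartless (htl) and its adaptor protein Stumps (stumps). Tinman (tin), a homeodomain factor, sets up the dorsal mesoderm and the heart, and Bagpipe (bap), a related homeodomain factor, sets up the visceral mesoderm. The MADS-box factor Mef2 controls muscle differentiation, and Held out wings (how) is an RNA-binding protein needed for muscle and tendon development.

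Chromatin immunoprecipitation with sequencing (ChIP-seq) maps the DNA that had been crosslinked to a protein directly or through its partners. Here an antibody against green fluorescent protein (GFP) was used on whole embryos aged 0 to 8 h of a strain with a CG10959-eGFP fusion, and the DNA had been sonicated to 200 to 800 bp. The labels give 1 group with 2 biological replicates and no second condition, so values were set beside those of all genes or all peaks and no test was made. Both replicates carry the fusion, and what drives its expression is not given in the sources used here. Of the controls, to which the labels refer, nothing was analysed here. Because whole embryos were used, strong binding in few cells and weak binding in many cells cannot be told apart, and no mesodermal cell was isolated.

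The authors deposited lists of peaks on the dm6 assembly. Each peak has a start, an end, a summit and a signal, the authors' measure of its strength relative to a control on a scale not stated with the lists. The irreproducible discovery rate (IDR) describes how well a peak keeps its rank between sets of reads. A ranked list holds strong and weak peaks alike, and a thresholded list holds those past the authors' IDR threshold. The main list is the thresholded list of the pooled replicates, with 3417 peaks on the arms. Replicate 1 had 2043 thresholded peaks and replicate 2 had 2328. The pooled ranked list held 144499 peaks, so most ranked peaks are far below the threshold. Read numbers were not used, and the depth behind each peak is unknown. Pooled signals were not compared with those of a replicate, except among the alternatives described at the end, where the scales may differ. The replicates' signals are set side by side, without rescaling, as a description of their spread, and a difference between them may be one of scale or depth, which was not tested.

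By class of position, 3 of the 8 genes had a TSS with a main-list summit at 500 bp or less, against 11.3% of all protein-coding genes. These were tin, htl and stumps. The share of all genes rose with gene length, from 9.85% of those under 5 kb to 16.6% of those of 20 kb or more. Of the 8 genes, 1 of 3 under 5 kb had such a summit, and 1 of 4 of 20 kb or more. The 1 gene in between, htl, also had one. A summit inside the gene was found for 5 of 8, against 9.64% of all, and a summit nearest to a TSS for the same 5, against 15.2%. With either criterion the count stayed at 5 of 8, beside 17.2% of all genes. At least 2 such peaks were found at 3 of the 8 (tin, Mef2 and stumps), against 4.54% of all genes. The 8 genes are long, with a median length of 19316 bp beside 2166 bp for all protein-coding genes, and long genes had main-list peaks more often. Of the genes of 20 kb or more, 53.5% had one inside or nearest, as did 3 of the 4 listed genes of that length (Mef2, stumps and how, but not twi). Of the genes under 5 kb 11.2% had one, as did 1 of 3 listed (tin, but not bap or sna), and of those from 5 to 20 kb 27.8% had one, as did the 1 listed gene of that length, htl.

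Of the 9 peaks, 8 lay inside the gene and 6 had their summit in an intron. With summits within 500 bp of a TSS classed apart, 4 of the 9 were intronic, against 35.4% of the main list. The median signal of the 9 peaks was 127.7 (range 69.99 to 360.5), close to the 124.9 of the whole main list (quartiles 93.05 and 199.7). A signal above that upper quartile was found for 3 of the 9, and above the median for 5. Peaks in the thresholded lists of both replicates numbered 5 of 9, against 46.8% of the main list. Another was in the list of replicate 1 only, another in that of replicate 2 only, and 2 were in neither. The authors' conservative pooled list, a stricter version, held a peak at 7 of the 9, against 83.4% of the main list. In the ranked lists of the single replicates every one of the 9 peaks had a counterpart, as did 3366 of the 3417 main-list peaks. Those ranked lists are long, with 129184 and 133841 peaks, so a counterpart there is weak support. The log2 ratio of replicate 1 to replicate 2 ran from -0.70 to 0.61 among them, inside the range from -1.0 to 0.87 that held the middle 90% of 3366 main-list peaks.

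**Figure D1:**
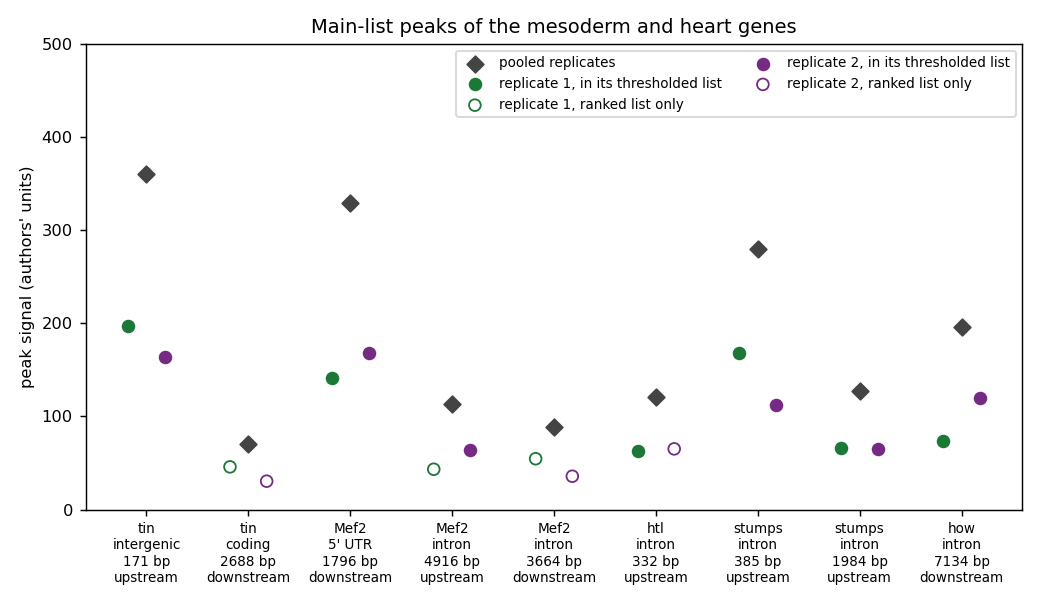
Signal of the 9 main-list peaks of tin, Mef2, htl, stumps and how (vertical axis, authors' units), by gene, position and distance to the nearest TSS of the gene. Diamonds are the pooled value and circles the replicates, open where the peak was in the ranked list only; the tin upstream, Mef2 5' UTR and first stumps peaks are the 3 highest, and only the tin coding peak and the Mef2 peak 3664 bp downstream have 2 open circles.

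The strongest peak lay upstream of tin (FBgn0004110, 3R 21378977 to 21381970, plus strand). It spanned 3R 21378718 to 21378877, and its summit at 21378806 was intergenic, 171 bp upstream of the only annotated TSS. Its pooled signal was 360.5, rank 293 of 3417, with 91.4% of the main list weaker. The replicates had 197.3 and 164.0, and the peak was in both thresholded lists. The next gene, mod(mdg4), which encodes chromatin proteins of the BTB family, had its nearest TSS 1405 bp from the summit. A second peak lay inside tin at 3R 21381485 to 21381844, with its summit at 21381665 in a coding exon, 2688 bp downstream of the TSS. It was the weakest of the 9, with a pooled signal of 69.99, and 5.41% of the main list was weaker. The replicates had 45.87 and 30.5, and neither thresholded list nor the conservative list held it. Thus 1 of the 2 tin peaks had the support of both replicates and the other of neither on its own. The sequences around both summits, 101 bases on the plus strand from the RefSeq copy of dm6, are shown because they are the promoter and the coding site of the heart gene. Capitals mark a match to a searched motif in the first, the E-box CATATG that Twist can bind, and in the second the codons of the homeodomain's conserved signature, which lie 30 bp from the summit. The second peak thus spanned the codons of this signature, which is part of the DNA-binding domain. Whether the summit itself lies within the codons of the domain was not determined. The protein has 416 residues in the annotated frame.
tin upstream, chr3R:21378756-21378856: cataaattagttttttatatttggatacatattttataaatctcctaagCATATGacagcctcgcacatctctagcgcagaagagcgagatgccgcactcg
tin coding, chr3R:21381615-21381715: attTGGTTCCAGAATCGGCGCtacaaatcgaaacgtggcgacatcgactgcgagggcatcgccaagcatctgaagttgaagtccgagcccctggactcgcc

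Downstream of tin on the same strand lies bap (FBgn0004862, 3R 21388880 to 21390449). It had no main-list peak of its own, and the only one within 10 kb was the tin coding peak, 7215 bp upstream of its TSS. A ranked peak did sit at the bap TSS, with its summit 4 bp downstream, but at a pooled signal of 50.71 and 24.34 and 29.22 in the replicates. Its score, the authors' whole number of up to 1000 that rises with reproducibility, was 76, where the lowest score in the main list was 830. On the other side of tin, 5111 bp upstream of its TSS, a main-list peak of signal 97.32 lay in mod(mdg4), 291 bp from a TSS of pre-mod(mdg4)-AA. It was in neither replicate's thresholded list. Between these neighbours the tin upstream peak was the only one in both replicates' lists.

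Of the FGF pathway members, the receptor gene htl (FBgn0010389, 3R 18045216 to 18052984, minus strand) had 1 main-list peak. It spanned 3R 18049518 to 18049877, with its summit at 18049698 in an intron, 332 bp upstream of the second, internal TSS. The pooled signal was 120.7, with 47.6% of the main list weaker. The replicates had 62.67 and 65.18, nearly equal values. Replicate 1 held the peak in its thresholded list, and replicate 2 only in its ranked list with a score of 769. The adaptor gene stumps (FBgn0020299, 3R 14577217 to 14608079, plus strand, 5 TSSs) had 2 peaks, both in introns and both in the thresholded lists of both replicates. The stronger spanned 3R 14591157 to 14591253, with its summit at 14591235, 385 bp upstream of an internal TSS. Its pooled signal was 279.3, and the replicates had 167.8 and 112.5. The weaker, at 3R 14589456 to 14589815 with its summit at 14589636, lay 1984 bp upstream of the same TSS. Its pooled signal was 127.7, and the replicates had 65.7 and 64.57. Both stumps peaks and the htl peak thus lay upstream of an internal TSS rather than the first TSS of the gene. Replicate 1 alone had a further thresholded peak in stumps with its summit at 14591438, at a signal of 5.28.

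In how (FBgn0264491, 3R 22042191 to 22079321, plus strand, 1 TSS) there was 1 main-list peak. It spanned 3R 22049145 to 22049504, with its summit at 22049325 in an intron, 7134 bp downstream of the TSS, and was the farthest of the 9 from a TSS. The pooled signal was 195.9, with 74.3% of the main list weaker. The replicates had 73.48 and 119.6, both in their thresholded lists, so replicate 2 was the higher here, while replicate 1 was the higher at both tin peaks and the stronger stumps peak. The sequences around the summits of htl, stumps and how, 101 bases on the plus strand of dm6 from RefSeq, are shown because AT-rich words recur in stumps and how. Capitals mark, in htl, the letters CGATA and, in the stronger stumps window, the reverse complement of GAGAG. The other capitals in stumps and how mark those of the 10 words of 8 bases that were most enriched at the other main-list summits over their flanks.
htl, chr3R:18049648-18049748: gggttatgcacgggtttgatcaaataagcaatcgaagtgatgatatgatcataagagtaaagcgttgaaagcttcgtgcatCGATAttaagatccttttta
stumps stronger, chr3R:14591185-14591285: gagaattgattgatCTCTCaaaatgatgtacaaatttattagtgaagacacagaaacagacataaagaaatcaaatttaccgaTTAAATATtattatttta
stumps weaker, chr3R:14589586-14589686: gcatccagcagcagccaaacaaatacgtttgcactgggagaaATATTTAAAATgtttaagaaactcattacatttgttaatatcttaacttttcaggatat
how, chr3R:22049275-22049375: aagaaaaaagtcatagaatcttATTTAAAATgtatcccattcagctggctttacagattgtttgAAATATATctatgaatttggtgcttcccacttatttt

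At least 1 of the 10 words was in 3 of the 9 windows (both stumps windows and how), against 28.0% of the windows at other main-list summits and 13.3% of flanks 300 bp away. In GC content the 9 windows ranged from 23.8% at the stronger stumps peak to 56.4% at the tin coding peak and 2 of the Mef2 peaks, with a median of 36.6% beside 34.7% for the whole main list. Of 11 motifs searched on both strands within 50 bp of the summit, 4 matched at least 1 window. CATATG, an E-box of the form Twist can bind, was in the tin upstream window only, and in 3.57% of main-list windows and 2.99% of flanks. CGATA, the core of the site of the boundary factor BEAF, was in the htl window and in the Mef2 window 3664 bp downstream of a TSS (12.6% of main-list windows and 11.2% of flanks). GAGAG, which GAGA factor binds, was in the stronger stumps window (10.6% of main-list windows and a larger share of flanks). GCCATT, the core of the site of the Polycomb recruiter Pho, was in the same Mef2 window that held CGATA (6.12% and 6.75%). No window held the E-box CACATG (4.04% of main-list windows), the Snail site CAGGTG (2.84%), the Zelda site CAGGTAG (0.498%), the Tinman site TCAAGTG (1.55%), the Mef2 site (6.12%), the DRE core TATCGATA (0.907%) or the core of the promoter element Motif 1, GTCACACT (0.615%). The DRE core contains CGATA, so a match to it is also a match to the other. A match is a description of the letters and not a site in use.

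The other 3 of the 9 peaks lay at Mef2 (FBgn0011656, 2R 9913496 to 9958858, minus strand, 3 TSSs), the gene with the most main-list peaks of the 8. Its strongest peak spanned 2R 9942894 to 9943044, with its summit at 9942968 in a 5' UTR exon, 1796 bp downstream of the middle TSS. The pooled signal was 328.9, with 89.5% of the main list weaker, and the replicates had 140.9 and 167.8, both in their thresholded lists. This was 1 of few such sites, since 5' UTR exons outside promoters held 0.410% of all main-list summits. The second peak, at 2R 9949500 to 9949859 with its summit at 9949680, was intronic and 4916 bp upstream of that TSS. Its pooled signal was 113.5. Replicate 2 had it in its thresholded list at 63.97, and replicate 1 only in its ranked list at 43.29, with a score of 42. The third, at 2R 9940920 to 9941279 with its summit at 9941100, was intronic and 3664 bp downstream. Its pooled signal was 88.17, the replicates had 54.6 and 35.8, and neither thresholded list nor the conservative list held it.

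Beyond these, an intronic position in Mef2 was in the thresholded lists of both replicates but not in the main list. The pooled ranked peak there, at 2R 9935794 to 9936153 with its summit at 9935974, had a signal of 180.6 but a score of 137. Replicate 1 had 2 thresholded peaks at the place, with summits at 9935819 (signal 69.02) and 9936026 (28.32), and replicate 2 had 1 with its summit at 9935990 (102.2). By signal alone this was the second strongest position inside the gene. The strongest main-list peak within 10 kb of Mef2 belonged to its neighbours. It spanned 2R 9959758 to 9960050, had a signal of 627.7 (replicates 345.4 and 272.3, both in their thresholded lists), and lay in an intron of Pal1, 163 bp from the TSS of Pdrg1 and 1037 bp upstream of the distal TSS of Mef2. It is therefore not counted among the 9.

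Neither gene of the first step, twi (FBgn0003900, 2R 22985374 to 23048325, plus strand) or sna (FBgn0003448, 2L 15476593 to 15478260, minus strand), had a main-list peak inside it, nearest to it or within 10 kb. In this annotation twi is long because 1 of its 3 TSSs lies far upstream. A ranked peak sat 32 bp downstream of another of them, with a pooled signal of 65.4, a score of 272 and 30.24 and 31.08 in the replicates. The strongest ranked peak within 10 kb of twi had 67.2. Around sna the strongest had 57.79 and lay 4192 bp downstream of the TSS (replicates 31.2 and 22.15), and a peak in its coding exon, 357 bp downstream, had 51.93 (24.79 and 25.54). The pooled values given here for twi and sna, and that of the ranked peak at the bap TSS, were all below the 69.99 of the weakest of the 9 peaks. They are the strongest of a window or were picked at a TSS or in an exon, and each of these genes also had weaker ranked peaks.

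**Figure D2:**
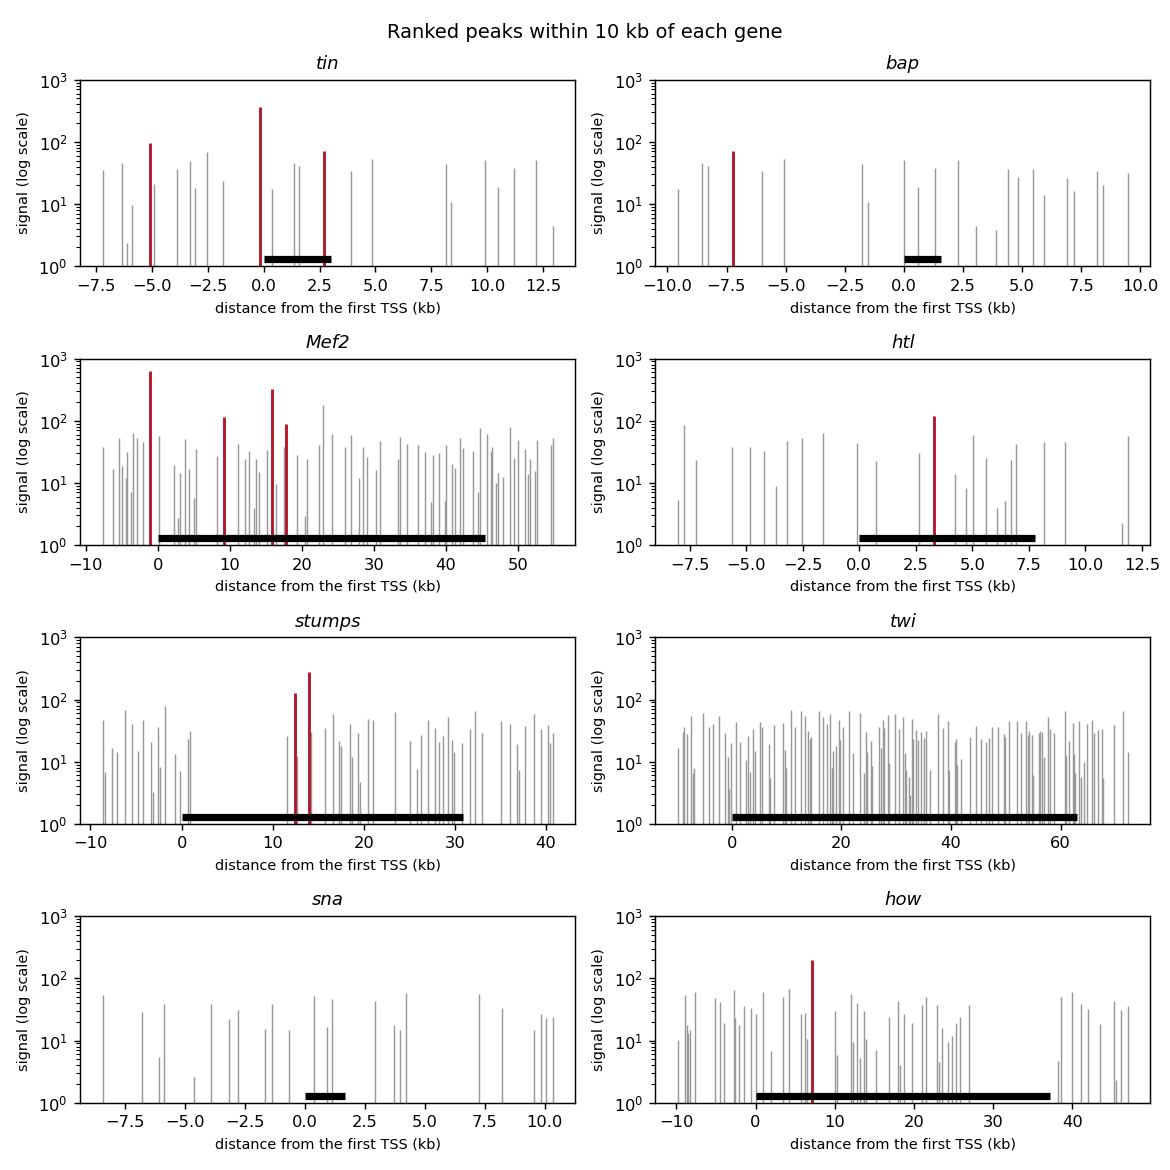
Ranked peaks of the pooled replicates within 10 kb of each of the 8 genes, by distance of the summit from the first TSS in kb (positive in the direction of transcription) and signal on a log scale. Red lines are main-list peaks, those of neighbouring genes included, grey lines all others and the black bar the gene; twi and sna have no red line, and the only one in the bap panel is the tin coding peak.

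Within 10 kb of the 8 genes lay 416 ranked peaks, or 403 when those shared by tin and bap are counted once. Their median signal was 29.91, beside 27.05 for the whole ranked list, whose 95th percentile was 66.11. No ranked peak in these windows with a score of 830 or more, the lowest in the main list, was missing from that list. A thresholded list is made in this way, so it is not a result about these genes. Per kb of window the genes had from 0.936 peaks (htl) to 1.52 (twi), with a median of 1.10 beside 1.29 for all protein-coding genes. In the htl window a stretch of 5.9 kb, from 3R 18035216 to 18041114, had no summit in any ranked list. Of that stretch 88.7% was 1 annotated transposable element, so the htl value is lower than it would be without it. The gene with the most weak peaks per kb, twi, thus had no main-list peak. By the strongest ranked signal within 10 kb, the order was Mef2 (627.7), tin (360.5), stumps (279.3), how (195.9), htl (120.7), bap (69.99), twi (67.2) and sna (57.79). The values of Mef2 and bap came from a neighbour's peak. The median over the 8 was 158.3, beside 85.0 for all protein-coding genes (quartiles 66.05 and 169.4). A longer gene has a longer window, and the 8 genes have a median length of 19316 bp beside 2166 bp for all. Neither this median nor the shares that follow are adjusted for length. Lower values were found for 96.7% of all protein-coding genes in the case of Mef2, 91.0% for tin, 86.5% for stumps, 78.6% for how, 64.9% for htl, 31.5% for bap, 27.0% for twi and 11.6% for sna. In the ranked list of replicate 1 the order was Mef2, tin, stumps, how, htl, twi, bap and sna, and in that of replicate 2 it was Mef2, tin, how, stumps, htl, twi, sna and bap. The first 5 and the last 3 were the same genes in all lists, but the order within the last 3 changed, as did that of stumps and how.

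**Figure D3:**
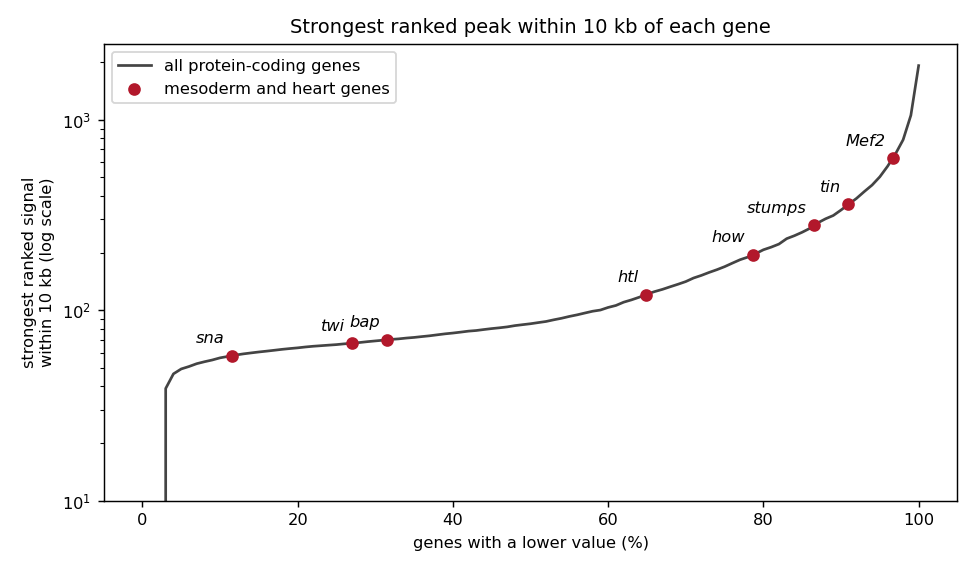
Strongest ranked signal within 10 kb of a gene (vertical axis, log scale, authors' units) against the percentage of protein-coding genes with a lower value. The window grows with the length of the gene, which is not adjusted for. The line is all protein-coding genes and the points are the 8 listed genes; sna, twi and bap lie below the median of 85.0 and Mef2, tin, stumps, how and htl above it.

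The wider pathway was described with 6 lists of 82 further genes, also chosen with earlier results of these data known. Of these, 13 (15.9%) had a main-list summit at 500 bp or less from a TSS, here called a promoter peak, and 38 (46.3%) had one inside or nearest, so that 44 had none. Their median length was 13841 bp, and length bears on both counts. Promoter peaks were found at 5 of the 34 further genes of 20 kb or more (16.6% of all such genes). Under 5 kb they were found at 1 of 16 (9.85%). Of the 32 further genes from 5 to 20 kb, 7 had a promoter peak. The share of all genes of that length lay between the 9.85% and the 16.6% of the other classes. The share of the further genes was above both, but it rests on few genes. Of the further genes of 20 kb or more 22 of 34 had a peak inside or nearest (53.5% of all such genes), of those from 5 to 20 kb 12 of 32 (27.8%) and of those under 5 kb 4 of 16 (11.2%). The list of genes of mesoderm invagination and early mesoderm had the highest share, 8 of 12. There mthl1, a receptor gene of the folding ventral cells known as mist, had a promoter peak of signal 209.5, 182 bp upstream (replicates 98.14 and 117.7), Traf4 had one of 143.6, and CadN, an N-cadherin gene, one of 96.75. Outside promoters, by the strongest peak of each gene, the highest was in an intron of zfh1, a zinc-finger homeodomain factor of the mesoderm, at 571.0 (replicates 306.3 and 259.3), followed by an intronic peak of the Netrin gene NetA at 260.5.

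Among the genes of FGF signalling in mesoderm spreading, 0 of 12 had a promoter peak and 6 of 12 had a peak inside or nearest. Taking the strongest peak of each gene, the highest values were intronic, in aop, an ETS repressor gene acting at the end of the pathway (signal 645.7), and in pnt, the ETS activator gene that opposes it (268.7). Of the genes of the heart and dorsal mesoderm, 1 of 16 had a promoter peak and 6 of 16 had a peak inside or nearest. The promoter peak was that of ush, a cofactor of GATA factors, at 133.1 and 497 bp upstream. Of the peaks outside promoters, taking the strongest of each gene, the highest were an intronic peak of ush at 339.3 and an intergenic one 4518 bp upstream of Doc2, a T-box gene of the dorsal tissues, at 290.0. In the visceral mesoderm list 2 of 8 genes had a promoter peak and 4 of 8 had one inside or nearest. The T-box gene org-1 had the strongest of all the 82 genes, 797.6, 355 bp upstream (replicates 359.3 and 444.3). The other promoter peak of this list was that of the zinc-finger gene bowl with 544.2 (208 bp upstream), and outside promoters bowl had 225.0 and Fas3, a cell adhesion gene, 208.0. The org-1 and bowl promoter peaks were each in both replicates' thresholded lists.

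In the list of muscle founders and fusion, 3 of 17 genes had a promoter peak and 8 of 17 had one inside or nearest. The promoter peaks were those of mbc (189.9), rols (111.8) and blow (97.51), all genes of myoblast fusion. The mbc peak was 185 bp upstream of the mbc TSS but nearer to the TSS of another gene, in a 5' UTR exon outside mbc, and those of rols and blow were in neither replicate's thresholded list. By the strongest peak of each gene, intronic peaks had the highest signals, at 560.4 in kirre, a gene of the founder cell adhesion protein, and 421.3 in mbc. In the list of muscle differentiation, 4 of 17 had a promoter peak and 6 of 17 had one inside or nearest. These included sls (168.2), which encodes a titin-like protein, Msp300 (161.4), Act87E (106.2) and mys (92.34), the gene of an integrin beta chain, whose replicates differed, at 24.56 and 76.29. The highest signals outside promoters, by the strongest peak of each gene, were those of intronic peaks in the integrin alpha genes mew (437.3) and if (217.9). Every one of the 6 lists had a share inside or nearest above the 17.2% of all genes, and 2 of them, FGF signalling and heart and dorsal mesoderm, had a promoter share below the 11.3%. The counts behind these shares are small, and gene length is not adjusted for.

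**Figure D4:**
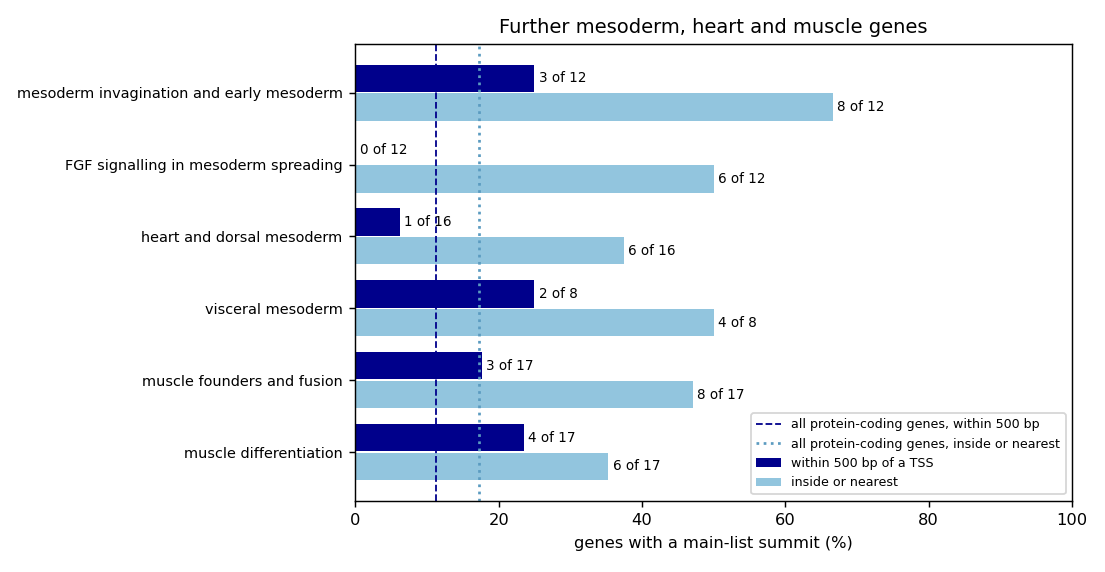
Percentage of the genes of each of the 6 further lists with a promoter peak, at most 500 bp from a TSS (dark bars) or inside the gene or nearest to it (light bars), with the counts beside the bars. The dashed and dotted lines are the 11.3% and 17.2% of all protein-coding genes, and gene length, which differs from that of all genes, is not adjusted for.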

How the data were processed

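Whole-embryo ChIP-seq of 2 biological replicates, in 1 group, was taken from the authors' deposited peak lists (narrowPeak, dm6), each made against a control, per the descriptions deposited with them. Neither aligner nor peak caller is given in the sources used here. Both signal and score deposited with each peak are the authors' values, and the summit is the deposited start plus the deposited offset. The pooled ranked lists also hold 16 columns with values of single replicates, which no label ties to a sample and which were left aside. Of 2 pooled ranked lists, the one that holds all 3417 main-list peaks was used. Genes and TSSs came from the Ensembl annotation of dm6, sequences from RefSeq's copy, and 2 gene symbols were updated. Coordinates are 1-based. Peaks in different lists were matched by an overlap of at least 1 bp.

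The 8 genes and the 6 lists were chosen with earlier results of these data known, and the motifs and the length classes after the files were seen. Named genes are the 8, and in each list up to 4 with the strongest promoter peak and up to 2 with the strongest other peak. mod(mdg4), pre-mod(mdg4)-AA, Pal1 and Pdrg1 were named as neighbours after their values were seen. The 8-mers were ranked on the main-list peaks of other genes. Peak assignment was tested on simulated data, with 200 of 200 planted peaks recovered (seed 1). Python 3.11.15, numpy 2.4.6, pandas 2.3.3 and matplotlib 3.10.9 were used. No test was made, since there is no contrast. The alternatives were each replicate alone, the conservative list, only the strongest 500 peaks, and other promoter distances, overlap rules and motif windows. The peaks in both replicates' lists were added as an alternative after the data were seen.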

Additional observations from a re-analysis of the deposited data

How the results depend on the processing

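No paired analysis was possible because both replicates belong to 1 group. In 61 alternatives of the main values, 38 stayed within the limits set and 23 moved. The 5 genes with a peak were the same in the conservative list and in replicate 1's list. Among the strongest 500 peaks, 2 genes had a summit inside, 3 had one nearest and 3 had either (tin, Mef2 and stumps), with 3 peaks of median signal 328.9, and of the further genes 2 had a promoter peak and 10 one inside or nearest. Among peaks in both replicates' lists, 3 genes had a summit inside, 5 peaks remained with a median of 279.3, and of the further genes 6 had a promoter peak and 22 one inside or nearest. The conservative list gave a median of 195.9. With a single replicate the genes with a summit inside numbered 3 to 4 (htl had no peak in replicate 2's list), the median signal was 69.02 to 112.5 in that list's units, the further genes with a promoter peak numbered 7 to 9, and the median of the strongest ranked signals was 68.07 to 88.85. At 200 bp, 1 of the 8 genes (tin) and 4 of the further genes had a promoter peak. When a match needed 0.5 of the length of both peaks, 3 of the 9 peaks were in both lists. Within 10 kb of a TSS rather than of the gene lay 277 ranked peaks. With 100 bp on each side there were 8 motif matches, from 5. The shares of all protein-coding genes under these settings are not given here, so a changed count cannot be set beside that of all genes. The cause of these moves was not tested. Of 35 alternatives for single genes or motifs, 19 moved, most of them strongest ranked signals read from a single replicate's list. Signals of a replicate and of the pool may differ in scale, so a move in signal between them is not read as a result. Unknown depth, 2 replicates and 8 genes limit all counts.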

Other observations

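Some of the further genes held many peaks, a pattern seen after the values were known. At least 5 main-list peaks were assigned to 4 of the 82, and to 57 protein-coding genes in all. They were kirre with 13, pnt with 8, ush with 7 and rols with 5, and the highest count of any gene was 14, at CG1677. The genes pnt, ush and rols are also long, at 55.94, 64.34 and 56.63 kb. All 13 kirre summits lay in introns of a gene of 394.1 kb and none within 500 bp of a TSS, and 9 of them were in both replicates' lists. Of the FGF ligand genes of the receptor Heartless, ths had 4 main-list peaks and pyr had none. The strongest ths peak had a signal of 221.6 and lay 13886 bp upstream of its TSS. The gene ths is also the longer, at 57.61 kb against 14.08 kb for pyr. Upstream of Doc2 lay 3 intergenic peaks of signal 290.0, 288.0 and 186.0, at 4518, 6636 and 8969 bp, each in both replicates' lists. ths, pyr and the weaker Doc2 peaks were named after their values were seen.

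A few main-list peaks had very low signals beside a close neighbour. Of the 3417, 129 had a signal under 35, and 127 of these had another main-list summit within 250 bp, such as 1 of the pnt peaks at 16.27. Both limits were set after the values were seen. None of the 9 peaks of the 8 genes was among them, but they enter counts of peaks per gene at pnt, mbc and trbl. The last is a further gene of the early mesoderm list, named after its values were seen. Above the signal limit, pnt had a peak of 52.1 and rols one of 67.06 that also lay within 250 bp of another summit of the gene.

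The pooled ranked list had long stretches without any peak at stumps and how, noticed in the plot of ranked peaks by gene. In stumps no pooled summit lay between 3R 14578163 and 14588835, a stretch of 10.7 kb with no annotated transposable element. The ranked list of replicate 1 had 5 summits there (strongest 23.64), that of replicate 2 had 12 (strongest 21.53) and the pooled ranked list that was not used otherwise had 7 (strongest 40.68). At how the stretch ran from 3R 22069105, inside the gene, to 22080332, beyond its end at 22079321, 11.2 kb in all, with 1 summit in replicate 1 (14.65), 11 in replicate 2 (strongest 40.97) and none in the other pooled list. Over all arms neighbouring summits of the pooled ranked list lay a median of 632 bp apart, and 1128 of 144493 pairs were over 9 kb apart. Of these 1128 stretches, 1087 held a ranked summit of at least 1 replicate. A place without a pooled ranked peak was therefore often not empty in the replicates, and the peaks per kb given for stumps and how are lower than they would be without such stretches. The reason was not tested.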
